A study of Mus musculus with 16 samples.

Results

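Integrins and laminins are the receptors and a main group of ligands through which cells hold on to the basement membrane. The genes considered here are the autosomal protein-coding genes of GENCODE M21 whose symbol begins with Itga, Itgb, or with Lama, Lamb or Lamc followed by a digit. The rule returned 41 of 20807 autosomal genes. Of these, 27 encode integrin subunits, 11 encode laminin chains, and 3 carry a matching symbol but encode no subunit (Itgb1bp1, Itgb3bp and Itgbl1). 1 X-linked gene with a matching symbol was left out by the rule.

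The study asked what happens to gene-body histone H2B monoubiquitylation (H2Bub1) and to RNA polymerase II (Pol II) when ATXN7L3, the adaptor of the deubiquitylation module of the SAGA co-activator, is lost. Peaks were compared between Atxn7l3+/+ (WT) and Atxn7l3-/- (KO) mouse embryonic stem cells (mESCs) and between WT and KO primary mouse embryonic fibroblasts (MEFs), with 4 Pol II and 4 H2Bub1 peak lists and 1 library per group. Both genotypes came from intercrosses of heterozygous mice on a mixed background of DBA/2 and C57BL/6, with a null allele made by crossing carriers of the targeted allele to FLP recombinase deleter mice, so that no tissue-specific Cre was involved. The mESCs of both genotypes were grown with serum, LIF and the inhibitors PD0325901 and CHIR99021. The MEFs of both genotypes were taken from embryos at E10.5 without head and gastrointestinal tract, and the study describes round cells among the KO MEFs, which it calls MEF-like. With 1 library per group there is no replicate error, no value below has a test, and each difference is one between 2 libraries.

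An integrin is a dimer of an alpha and a beta subunit that spans the plasma membrane and couples matrix proteins to the actin cytoskeleton through talin and kindlin. A laminin is a trimer of an alpha, a beta and a gamma chain, which assembles outside the cell into a sheet that carries the basement membrane. The alpha subunit largely sets which ligand an integrin binds, and Itgb1 encodes the beta subunit shared by the laminin-binding, the collagen-binding and many of the fibronectin-binding integrins. H2Bub1 is placed on the bodies of transcribed genes by the RNF20 and RNF40 ligase, and Pol II peaks at a promoter mark genes with polymerase bound near the transcription start site (TSS).

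The values used are of 3 kinds. The Pol II promoter fold is the highest deposited fold, a linear ratio over the background of that library, among peaks within 1000 bp of the TSS, upstream or downstream. The Pol II body counts are peaks and covered kb beyond that window up to the gene end. The H2Bub1 covered share is the percentage of the gene from TSS to end that lies under H2Bub1 peaks. A promoter without a value had no peak in the list, which does not show that Pol II was absent.

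The lists held between 11963 and 45870 Pol II peaks and between 19725 and 48952 H2Bub1 peaks. The KO lists of Pol II were the shorter ones in both cell types, and the KO lists of H2Bub1 were the longer ones. Within exons 2 to 12 of the first transcript record of Atxn7l3, the part named as flanked by loxP sites, if the study numbers the exons as this record does, H2Bub1 peaks covered 100% (WT) against 13.0% (KO) in mESCs, but 21.6% (WT) against 19.6% (KO) in MEFs. Pol II peaks covered 20.7% (WT) against 11.9% (KO) of the same stretch in mESCs and 19.3% (WT) against 10.9% (KO) in MEFs, so that the KO lists hold peaks on this stretch and the H2Bub1 lists of MEFs do not separate the genotypes there. The null allele was made by FLP recombination, and whether this stretch is missing in KO was not tested. Over the whole gene, H2Bub1 peaks covered 100% (WT) against 62.5% (KO) in mESCs and 22.0% (WT) against 65.3% (KO) in MEFs. In both KO lists the stretch thus had a lower H2Bub1 covered share than the gene as a whole. The study reports that ATXN7L3 protein was undetectable in its KO mESCs and MEFs. Of 6 pluripotency markers, 5 had a Pol II promoter peak in each mESC library. In MEFs 0 had one in WT and 1 in KO, which was Tfcp2l1 with a fold of 7.08. Of 5 endothelial markers, Kdr had one in WT MEFs alone, with a fold of 2.61, and Pecam1 in KO MEFs alone, with a fold of 4.31. All 6 fibroblast markers, among them Col1a1, Thy1 and Prrx1, had one in each MEF library. The summed promoter fold of the fibroblast list was 137 (WT) against 72.4 (KO) in MEFs. Of 9 epithelial and mesothelial markers, 0 had a promoter peak in WT MEFs and 4 did in KO MEFs, with a fold of 38.6 at Upk1b, 18.1 at Upk3b, 11.6 at Wt1 and 10.2 at Msln (a summed fold of 0 and 78.4), whereas Krt8, Krt18, Krt19, Epcam and Cdh1 had none in either MEF library. Of 6 leukocyte markers, 3 had a promoter peak in WT MEFs and 4 in KO MEFs, with a summed fold of 10.8 and 24.4, and Ptprc and Coro1a had none. The part of these markers in the results below was not tested, and a change in the share of cells that carry a peak cannot be told apart from a change in occupancy per cell.

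The promoters of 6 members are printed first, since their Pol II calls show the patterns described below. Of the 41 genes, 27 had an entry in the RefSeq promoter table (GRCm38.p6), and 23 of them a start within 1000 bp of the GENCODE start. Each sequence runs 5′ to 3′ on the gene's strand, over 300 bases from 250 before the RefSeq start. Capitals mark matches to GGGCGG on either strand (the reverse match reads CCGCCC), the core letters bound by Sp1-type factors. Also searched on both strands were TATAAA, the TATA box, then CCAAT, the box bound by NF-Y, and the letters TGANTCA of AP-1-type sites. None of these had a match in the 6 windows printed. Itgb1 (chr8:128685404-128685703, plus strand) had Pol II in every library, Itga5 (chr15:103366742-103367041, minus strand) only in KO mESCs and in both MEF libraries, and Itga3 (chr11:95076665-95076964, minus strand) only in MEFs, with the higher fold in KO. Itga8 (chr2:12301895-12302194, minus strand) and Itga11 (chr9:62677605-62677904, plus strand) had Pol II in WT MEFs alone, and Itga10 (chr3:96645334-96645633, plus strand) in KO MEFs alone.
Itgb1: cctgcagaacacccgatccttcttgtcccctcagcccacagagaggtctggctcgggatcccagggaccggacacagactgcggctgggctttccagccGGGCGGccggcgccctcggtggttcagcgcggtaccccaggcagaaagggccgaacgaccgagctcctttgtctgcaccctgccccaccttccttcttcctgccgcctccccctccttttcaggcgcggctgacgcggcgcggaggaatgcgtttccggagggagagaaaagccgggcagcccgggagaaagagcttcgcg
Itga5: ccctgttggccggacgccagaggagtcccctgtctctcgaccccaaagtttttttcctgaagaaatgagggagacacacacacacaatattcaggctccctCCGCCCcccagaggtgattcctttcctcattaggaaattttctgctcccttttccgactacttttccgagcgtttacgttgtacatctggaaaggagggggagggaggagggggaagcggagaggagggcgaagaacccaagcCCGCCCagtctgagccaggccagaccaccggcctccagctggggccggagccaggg
Itga3: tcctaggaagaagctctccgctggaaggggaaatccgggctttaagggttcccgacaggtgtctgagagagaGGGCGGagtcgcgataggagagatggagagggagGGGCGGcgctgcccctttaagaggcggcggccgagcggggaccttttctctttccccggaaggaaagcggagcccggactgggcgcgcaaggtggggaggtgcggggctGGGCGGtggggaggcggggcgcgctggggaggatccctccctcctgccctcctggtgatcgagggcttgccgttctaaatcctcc
Itga8: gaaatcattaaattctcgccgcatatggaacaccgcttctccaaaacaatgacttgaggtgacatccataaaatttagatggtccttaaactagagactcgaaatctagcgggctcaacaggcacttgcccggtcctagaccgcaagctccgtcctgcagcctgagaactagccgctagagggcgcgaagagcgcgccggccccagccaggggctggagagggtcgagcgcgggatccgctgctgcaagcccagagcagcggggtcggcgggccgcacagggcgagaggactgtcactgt
Itga11: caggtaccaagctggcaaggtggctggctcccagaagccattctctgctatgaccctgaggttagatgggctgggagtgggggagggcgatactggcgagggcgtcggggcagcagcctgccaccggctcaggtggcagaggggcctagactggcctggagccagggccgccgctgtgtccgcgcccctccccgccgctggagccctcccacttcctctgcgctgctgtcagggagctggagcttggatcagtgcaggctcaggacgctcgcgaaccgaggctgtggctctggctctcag
Itga10: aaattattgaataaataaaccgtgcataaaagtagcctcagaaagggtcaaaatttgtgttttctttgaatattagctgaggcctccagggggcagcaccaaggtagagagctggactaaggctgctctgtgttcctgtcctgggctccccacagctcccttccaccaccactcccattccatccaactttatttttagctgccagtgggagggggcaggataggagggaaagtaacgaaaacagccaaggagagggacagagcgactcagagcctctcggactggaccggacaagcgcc
The Itga3 window held 3 matches to GGGCGG, the Itga5 window 2 and the Itgb1 window 1, while the windows of Itga8, Itga11 and Itga10 held 0. Over the 23 members, 47.8% held GGGCGG, against 52.4% of the 13541 autosomal promoters in the table. CCAAT was present in 17.4% of members and 38.4% of all promoters, TATAAA in 0 members and 11.2% of all, and TGANTCA in 4.35% and 6.55%. The median GC share was 58.7% in members and 58.0% in all promoters, and the median ratio of observed to expected CpG was 0.499 and 0.660. The CpG ratio was 0.882 at Itga8, 0.798 at Itgb1, 0.768 at Itga3 and 0.308 at Itga10. These are matches of letters in a window and say nothing on which factor is bound.

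Pol II peaks were called at more of these promoters in MEFs than in mESCs, from lists that were far longer in MEFs (45870 peaks in WT against 17074 in WT mESCs). A promoter peak was called at 9 members in WT mESCs and 9 in KO mESCs, where 35.3% and 32.1% of all autosomal genes had one. It was called at 24 members in WT MEFs and 20 in KO MEFs, where 55.3% and 52.3% of all genes had one. Of the 26 members with a peak in either WT library, 17 had it in MEFs only, against 38.3% of all such genes, and 2 (Itga6 and Itgb4) in mESCs only, against 3.33%. With both WT lists cut to 17074 peaks, a promoter peak was called at 9 members in mESCs and 20 in MEFs, beside 35.3% and 51.2% of all genes, and 14 of 23 had it in MEFs only, against 34.7%. Promoter peaks were present in all 4 libraries at 4 members: Lamc1, Itgav, Itgb1 and Itgb5. At 12 members no library had a promoter peak, and at 10 of these the H2Bub1 covered share also stayed under 10% in every library: Lama2, Lama3, Lamb3, Lamc3, Itga2, Itgal, Itgax, Itgad, Itgb2l and Itgb6. Their covered share ran from 0% to 8.52%, the highest at Lamc3 in KO mESCs. The members are long genes, with a median of 64.4 kb against 17.6 kb for all autosomal genes, and 30 of them overlap no other protein-coding gene.

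**Figure D1:**
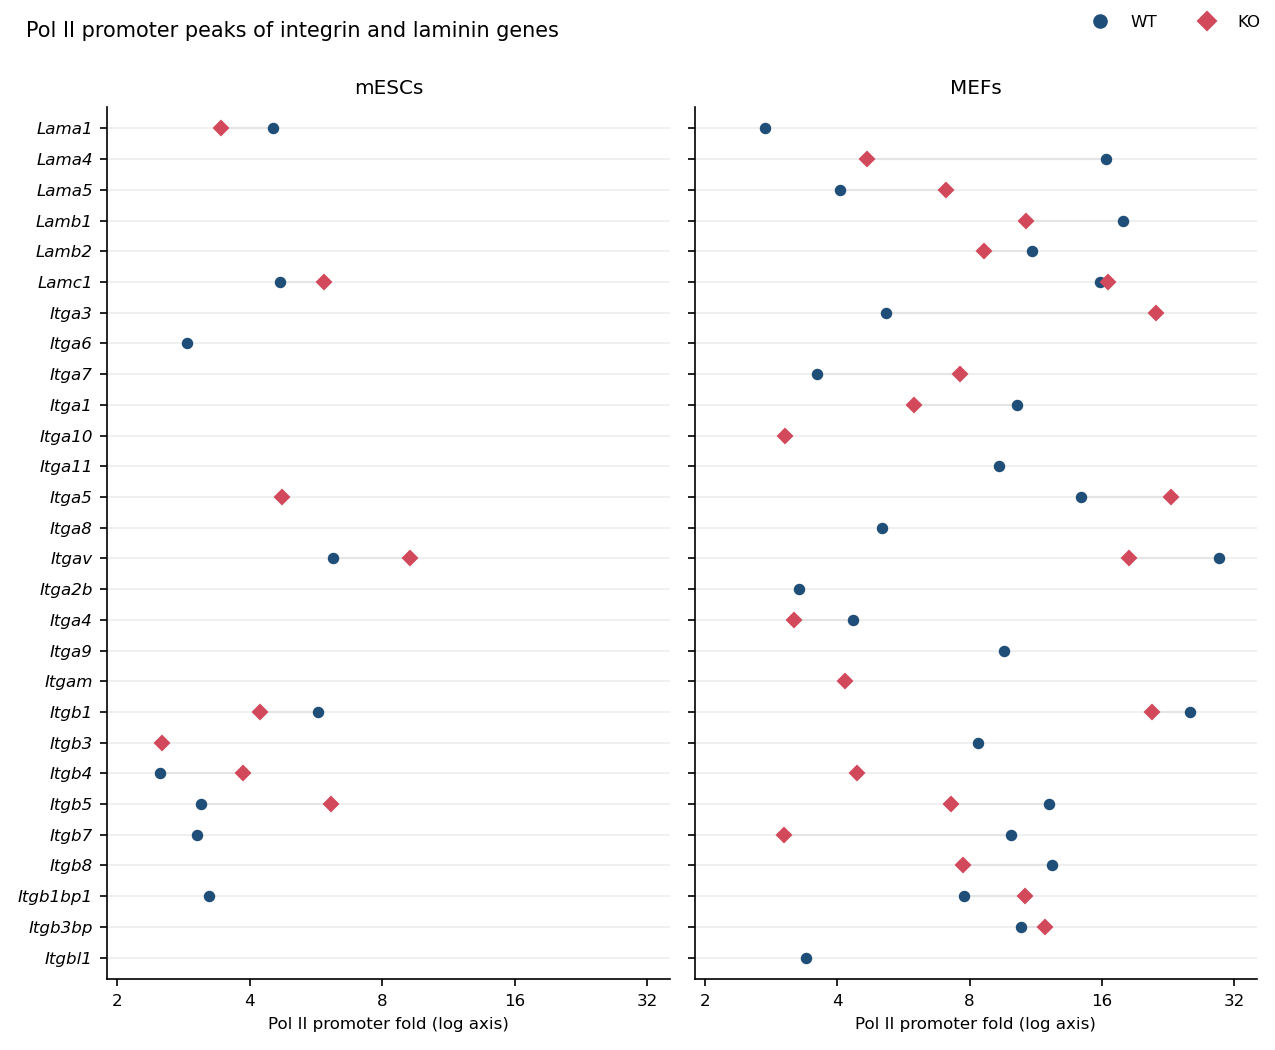
Pol II promoter fold (log axis) of 28 members with a promoter peak in at least 1 library, in mESCs (left) and MEFs (right). Circles are WT, diamonds are KO, a line joins a gene called in both, and a missing symbol means that no peak was called. The MEF values reach 29.6 at Itgav and the mESC values 9.27, and 7 genes show a WT circle alone in MEFs.

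KO and WT differed in MEFs at 10 promoters by presence. Among the 24 members with a WT peak in MEFs, 7 had none in KO (Lama1, Itga11, Itga8, Itga2b, Itga9, Itgb3 and Itgbl1), where 8.01% of all genes with a WT peak had none in KO. Among the 20 with a KO peak, 3 had none in WT (Itga10, Itgam and Itgb4), against 2.88% of all genes. In mESCs 3 of 9 were in WT alone (Itga6, Itgb7 and Itgb1bp1), against 22.8%, and 3 of 9 in KO alone, Itga5 and Itgb3 among them, against 15.1%. With mESC lists of the same length these became 1 of 5 in WT alone, against 18.1%, and 5 of 9 in KO alone, against 23.5%. Of the 7 in WT MEFs alone, 5 (Itga8, Itga9, Itga11, Itgb3 and Itgbl1) kept that call under all 6 other ways of calling peaks and promoters. So did 1 of the 3 in KO MEFs alone (Itga10), 1 of the 3 in WT mESCs alone (Itgb1bp1) and 2 of the 3 in KO mESCs alone, Itga5 among them.

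At promoters with a peak in both genotypes the fold was compared directly. Of the 17 such members in MEFs, 10 had the lower and 7 the higher fold in KO, with a median log2 ratio of KO to WT of -0.37, beside -0.22 over all 10576 such genes. A fold at least 2 times lower in KO was found at 2 of the 17 (Lama4 and Itgb7), against 7.27% of all genes, and one at least 2 times higher at 2 (Itga3 and Itga7), against 1.28%. Of the 6 in mESCs, 4 were higher and 2 lower in KO, beside 2956 higher and 2707 lower of all 5663 such genes. Their median log2 ratio was 0.46, beside 0.02 over all such genes. When both mESC lists were cut to the same number of peaks, 4 members remained, 2 of them higher and 2 lower, beside 2468 higher and 2639 lower of all 5107 such genes. The median was then -0.03, beside -0.02 over all such genes. None of these 6 was 2 times lower, against 1.68% of all genes, or 2 times higher, against 1.73%.

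**Figure D2:**
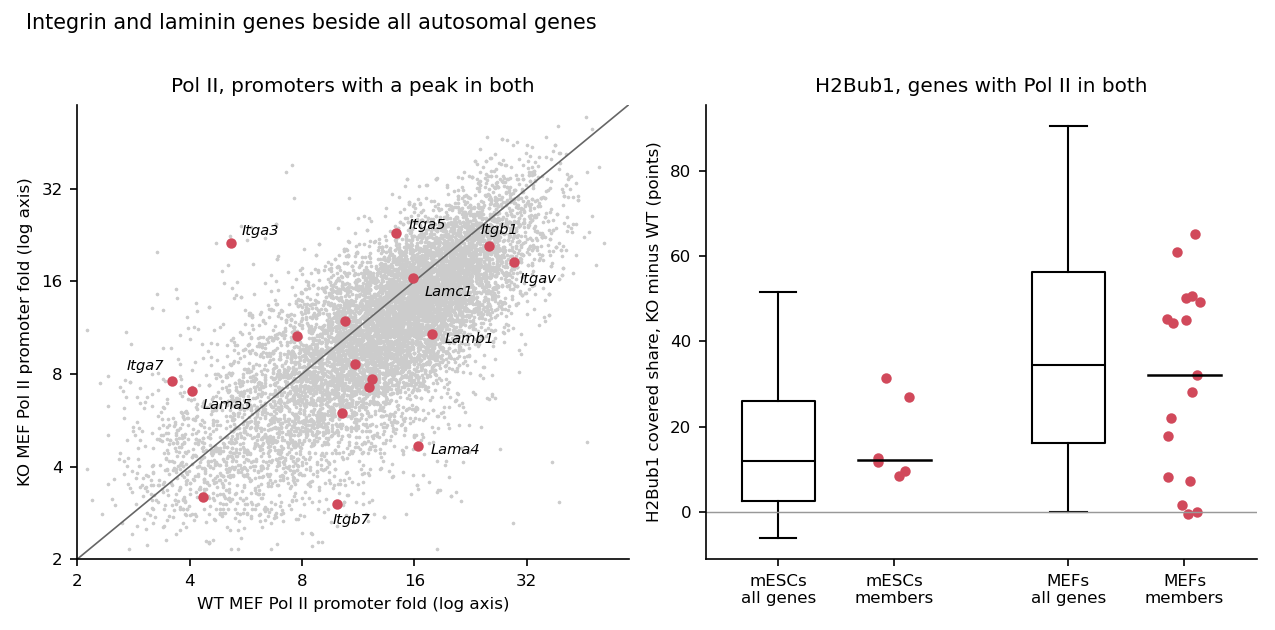
Left: Pol II promoter fold in KO against WT MEFs (both log axes), each grey point an autosomal gene with a peak in both, red points the 17 members, and the line marking equal values. Right: H2Bub1 covered share, KO minus WT in percentage points, for genes whose promoter carried Pol II in both genotypes; boxes give the quartiles and median of all genes with whiskers at the 5th and 95th percentiles, points are members and bars their median. Itga3 lies furthest above the line and Lama4 and Itgb7 below it, and the members' medians of 12.1 points in mESCs and 32.1 in MEFs sit near the medians of all genes, 12.0 and 34.5.

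Pol II beyond the promoter was recorded at 27 members in WT MEFs and 22 in KO MEFs, where 42.2% and 33.9% of all genes had a body peak, and at 7 and 8 members in WT and KO mESCs, where 20.9% and 13.6% did. The members together held 143 body peaks over 109 kb in WT MEFs and 84 over 56.3 kb in KO MEFs. All autosomal genes held 30524 body peaks over 26598 kb and 20317 over 15724 kb in these 2 lists. In mESCs the members held 17 peaks over 11.2 kb in WT and 12 over 5.02 kb in KO, and all genes 7701 over 4548 kb and 4211 over 2187 kb. In MEFs 15 of the 41 members had fewer body peaks in KO, against 24.6% of all genes, and 9 had more, against 9.50%. A body call needs 1 bp of peak anywhere in the body, and the members are longer, with a median of 64.4 kb against 17.6 kb. The part of gene length in these counts was not tested.

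**Figure D3:**
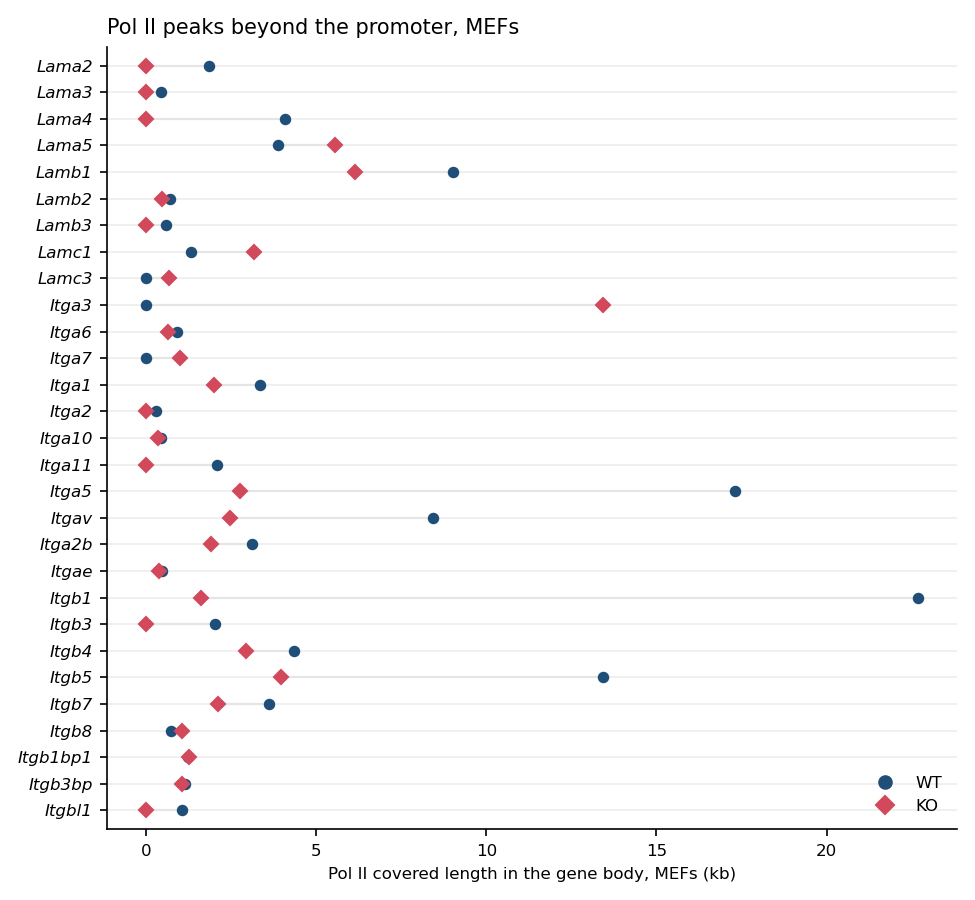
Length under Pol II peaks beyond the promoter window in MEFs (kb), for members with such a peak in either library; circles are WT and diamonds are KO. Itgb1 goes from 22.7 kb in WT to 1.60 kb in KO and Itga5 from 17.3 to 2.77 kb, whereas Itga3 goes from 0 to 13.4 kb.

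The median covered share of the 41 members went from 0.877% to 1.88% in mESCs, beside 1.31% to 6.66% over all autosomal genes, and from 0% to 1.42% in MEFs, beside 0% to 6.37%. These medians depend on the length of the lists: cut to the same number of peaks, they were 0.877% (WT) against 0.767% (KO) in mESCs, beside 1.31% and 5.15%, and 0% in both genotypes in MEFs, beside 0% and 4.30%. With a -log10 q of at least 3, all 4 medians of the members were 0%. A body peak was found at 26 members in WT mESCs and 26 in KO mESCs, where 55.7% and 62.1% of all genes had one, and at 12 in WT MEFs and 23 in KO MEFs, where 31.7% and 54.3% did. With a -log10 q of at least 3 these counts were 6 (WT) against 17 (KO) in mESCs, beside 22.2% and 44.9% of all genes, and 1 (WT) against 17 (KO) in MEFs, beside 5.76% and 49.4%. The covered share was higher in KO by at least 10 points at 10 members in mESCs, against 32.7% of all genes, and at 15 in MEFs, against 46.2%. It was lower by at least 10 points at 1 member in mESCs (Itgae), against 2.96%, and at 0 in MEFs, against 0.115%. The members' total under H2Bub1 peaks was 207 kb in WT and 362 kb in KO mESCs, and 60.8 kb in WT and 443 kb in KO MEFs. Over all autosomal genes the totals were 68998 and 139283 kb in mESCs, and 49211 and 219427 kb in MEFs. With lists of the same length the KO totals of the members were 345 kb in mESCs and 408 kb in MEFs, and the WT totals did not change. The marks were then joined gene by gene. All 9 members with promoter Pol II in WT mESCs had an H2Bub1 body peak, against 91.9% of all genes with promoter Pol II, as did all 9 in KO mESCs, against 97.8%. In MEFs these numbers were 10 of 24 in WT, against 53.4%, and 17 of 20 in KO, against 93.3%. With a -log10 q of at least 3, both marks were found at 4 of 8 in WT mESCs, against 52.2%, and 8 of 8 in KO mESCs, against 88.0%, and at 1 of 24 in WT MEFs, against 9.80%, and 15 of 20 in KO MEFs, against 87.2%. In WT MEFs 14 members had promoter Pol II and no H2Bub1 peak anywhere in the gene. Of the members with promoter Pol II in both genotypes, 4 of 6 in mESCs, against 54.4% of all such genes, and 12 of 17 in MEFs, against 82.4%, had a covered share at least 10 points higher in KO.

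**Figure D4:**
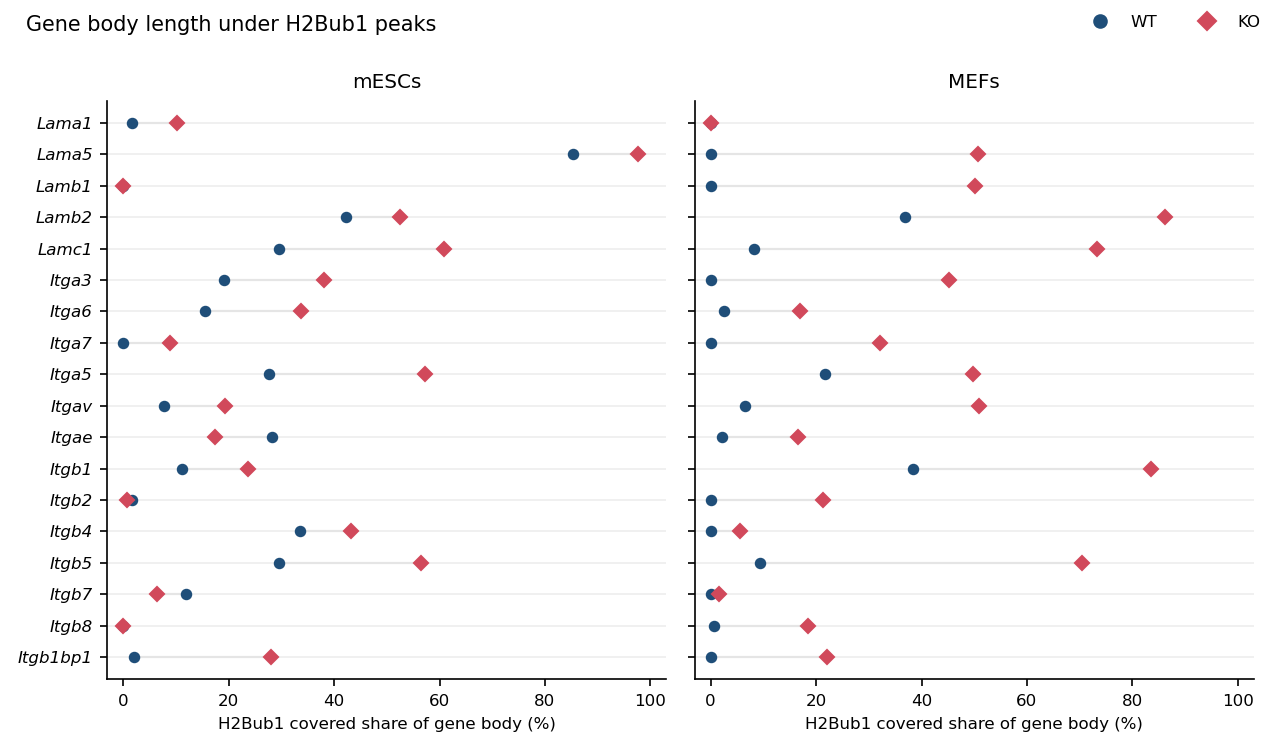
H2Bub1 covered share of the gene body (%) of the 18 members that reach 10% in at least 1 library, in mESCs (left) and MEFs (right). Circles are WT and diamonds are KO, and at equal values the diamond hides the circle. Every MEF diamond other than the one of Lama1, which is at 0%, lies to the right of its circle, and in mESCs Itgae, Itgb7 and Itgb2 lie to the left.

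Among the laminin alpha chains, which carry the globular domains that integrins bind, Lama1 is the chain of the first embryonic basement membranes. Its promoter fold was 4.53 in WT mESCs, 3.45 in KO mESCs and 2.74 in WT MEFs, with no peak in KO MEFs. The WT MEF value is the lowest of the 24 in that list, and the call was lost when both lists were cut to the same number of peaks. H2Bub1 covered 1.69% of Lama1 in WT mESCs and 10.2% in KO mESCs, most of it in the first 10 kb, where the share was 21.2% and 76.8%, and 0% in either MEF library.

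Lama4, the alpha chain of mesenchymal and endothelial basement membranes (chr10:38965515-39110188), had no Pol II peak in mESCs. Its promoter fold was 16.3 in WT MEFs and 4.67 in KO MEFs, a log2 ratio of -1.81, and its 6 body peaks in WT became 0 in KO. H2Bub1 covered 0.492% of it in WT MEFs and 0% in KO MEFs. Lama4 was the 1 member with a lower covered share in KO MEFs, whereas 15 members had one higher by at least 10 points, against 46.2% of all genes.

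Lama5, the widely expressed alpha chain of epithelial basement membranes (chr2:180176373-180225859), was the most covered member in mESCs although no promoter peak was called there. Its covered share was 85.3% (WT) against 97.6% (KO) in mESCs, with 5 and 4 Pol II body peaks. In MEFs the promoter fold was 4.05 (WT) against 7.06 (KO), with a covered share of 0% and 50.7%. All of the first 10 kb lay under H2Bub1 in KO MEFs and 38.3% of the rest. Lama2, the alpha chain of muscle and nerve, had 3 body peaks in WT MEFs alone, 1 of which, with a fold of 6.10, lies at another annotated start 2915 bp from that of the gene record. Lama3, the chain of epidermal anchoring complexes, had 1 body peak in WT MEFs.

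The beta chains Lamb1 and Lamb2 had promoter Pol II in MEFs alone. Lamb1 (chr12:31265234-31329644) had a promoter fold of 17.9 (WT) against 10.8 (KO) in MEFs, with 13 and 14 body peaks, and no Pol II or H2Bub1 peak in either mESC library. Its H2Bub1 covered share was 0% in WT MEFs and 50.2% in KO MEFs, so that Pol II stood along the gene in both genotypes and H2Bub1 peaks in KO alone. Lamb2 had a promoter fold of 11.1 (WT) against 8.61 (KO) in MEFs and a covered share of 36.9% and 86.1%. In mESCs Lamb2 had no promoter peak, 1 body peak in KO alone, which begins 10744 bp from the TSS at the gene end and covers 0.051 kb of it, with the start of Usp19 at 10866 bp, and a share of 42.3% and 52.5%. For Lamb3, a chain of epidermal laminin, the gene record overlaps Hsd11b1 and G0s2, and 1 Pol II body peak was called in WT MEFs alone.

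Lamc1 encodes the gamma chain of most laminins (chr1:153218922-153332786) and had Pol II in all 4 libraries. Its promoter fold was 4.70 (WT) against 5.89 (KO) in mESCs and 15.8 and 16.5 in MEFs. Its covered share was 29.6% and 60.9% in mESCs and 8.13% and 73.2% in MEFs, a difference of 65.1 points, the largest of any member. Unbroken coverage, with gaps of up to 1000 bp bridged, ran 1.45 kb from the TSS in WT MEFs and 78.3 kb in KO MEFs.

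Among members with Pol II in both MEF libraries, the laminin-binding subunits Itga3 and Itga7 had the largest ratios of KO to WT fold. Itga3, receptor for epithelial laminins (chr11:95044474-95076801), had a promoter fold of 5.16 (WT) against 21.3 (KO) in MEFs, a log2 ratio of 2.05. It had 0 Pol II body peaks in WT MEFs and 12 in KO MEFs, which cover 13.4 kb of a gene of 32.3 kb. H2Bub1 covered 0% of it in WT and 45.1% in KO MEFs, and 19.0% and 38.2% in mESCs, where no Pol II peak was called. Itga7, a laminin receptor of muscle that overlaps Mettl7b, had a promoter fold of 3.59 (WT) against 7.61 (KO) in MEFs and a covered share of 0% and 32.1%. Itga6, which pairs with the products of Itgb1 and Itgb4, had a promoter peak in WT mESCs alone, with a fold of 2.88 and a summit upstream of the window, and this call was lost with lists of the same length, with the narrow window and when the summit had to lie inside it. At another annotated start of Itga6, 41362 bp downstream, the Pol II fold was 10.4 (WT) against 7.45 (KO) in MEFs. Its covered share was 15.5% and 33.8% in mESCs and 2.47% and 17.0% in MEFs.

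**Figure D5:**
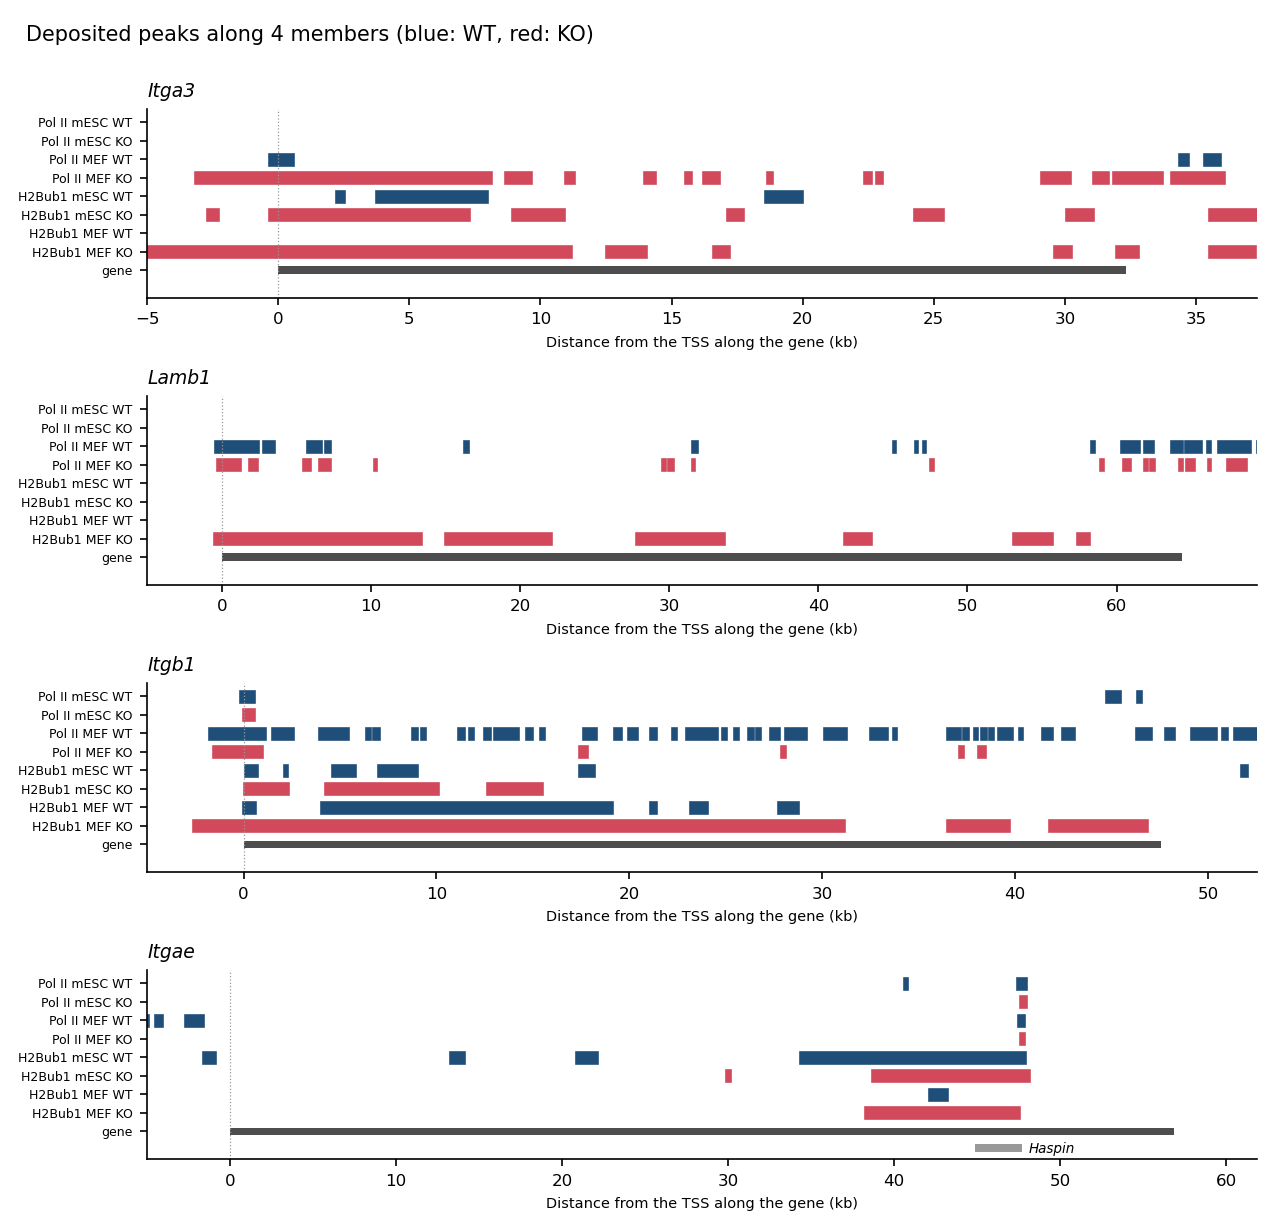
Deposited Pol II and H2Bub1 peaks along Itga3, Lamb1, Itgb1 and Itgae, with the distance from the TSS in kb along the gene on the horizontal axis; blue bars are WT peaks, red bars KO peaks, the dark bar the gene, and the grey bar the nested gene Haspin. Itga3 has Pol II and H2Bub1 along the gene in KO MEFs, Pol II body peaks on Itgb1 number 38 in WT against 4 in KO MEFs, and the longest Itgae H2Bub1 peak in each library other than WT MEFs reaches Haspin.

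Of the collagen-binding alpha subunits, Itga11, a fibrillar collagen receptor of fibroblasts (chr9:62677826-62783982), had a promoter fold of 9.33 and 3 body peaks in WT MEFs and no Pol II peak in KO MEFs. The nearest KO Pol II peak lay 109125 bp from its TSS. Itga1, which overlaps Pelo and the locus Gm49395, had a promoter fold of 10.2 (WT) against 5.99 (KO) in MEFs, and since Gm49395 starts 43 bp away the peak cannot be assigned to either gene. Itga10, a cartilage collagen receptor, had a promoter fold of 3.04 in KO MEFs alone, in a window that Gm42957 also overlaps. The covered share of these 3 genes stayed under 10% in every library, with 9.74% at Itga1 in KO MEFs as the highest value.

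The RGD-binding alpha subunits recognise fibronectin, vitronectin and related ligands. Itgav had Pol II in all 4 libraries, with a promoter fold of 6.17 (WT) against 9.27 (KO) in mESCs and 29.6 (WT) against 18.4 (KO) in MEFs. The log2 ratio was thus 0.59 in mESCs and -0.68 in MEFs. Its covered share was 7.67% and 19.4% in mESCs and 6.52% and 50.9% in MEFs. Itga5, the fibronectin receptor (chr15:103344286-103366763), had no promoter peak in WT mESCs, a fold of 4.73 in KO mESCs, and 14.3 (WT) against 22.9 (KO) in MEFs. Its Pol II body coverage went from 17.3 kb in WT to 2.77 kb in KO MEFs. Its covered share by H2Bub1 was 27.7% and 57.2% in mESCs and 21.7% and 49.8% in MEFs.

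Itga8, a receptor of kidney and smooth muscle (chr2:12106632-12301922), had a promoter fold of 5.06 in WT MEFs and no H2Bub1 peak in any library. In KO MEFs the nearest Pol II peak lay 116892 bp away. Itga2b, the platelet fibrinogen receptor, had a promoter fold of 3.29 in WT MEFs with 4 body peaks, and in KO MEFs no promoter peak and 3 body peaks, the nearest 2587 bp from the TSS. Of the 3 megakaryocyte markers, Gp1bb alone had a promoter peak, in WT MEFs, and Pf4 and Gp9 had none in any library.

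Itga4 and Itga9 bind vascular adhesion and matrix ligands of a shared class. Itga9 (chr9:118606690-118901003) had a promoter fold of 9.56 in WT MEFs and no peak in KO MEFs, where the nearest peak lay 87339 bp away. Itga4 had a promoter fold of 4.36 (WT) against 3.19 (KO) in MEFs. H2Bub1 covered under 1% of Itga9 and none of Itga4 in any library.

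The 5 leukocyte alpha subunits had no Pol II promoter peak outside KO MEFs. Itgam, a subunit of the complement receptor of myeloid cells, had a fold of 4.17 in KO MEFs, in a peak that begins 409 bp from the TSS and has its summit 662 bp downstream. The call was lost with the narrow promoter window, and the locus Gm49368 starts 43 bp from Itgam. Of the 6 leukocyte markers, Cd53 had a promoter peak in KO MEFs alone, as Itgam did. Tyrobp, Laptm5 and Spi1 had one in both MEF libraries, with the higher fold in KO, and Ptprc and Coro1a had none. Their part in the Itgam value was not tested. Itgal, Itgax and Itgad had no peak of either kind in any library. Itgae, the alpha subunit of intraepithelial lymphocytes, had H2Bub1 over 28.1% of its length in WT and 17.5% in KO mESCs, and over 2.09% (WT) against 16.6% (KO) in MEFs. Outside of WT MEFs, where the peak ended at 43.3 kb, most of this coverage lay in a peak that reaches the nested gene Haspin, which encodes a kinase of histone H3 and lies 44.9 to 47.7 kb from the Itgae TSS. That peak ran from 34.3 to 47.9 kb in WT mESCs, from 38.6 to 48.2 kb in KO mESCs and from 38.2 to 47.6 kb in KO MEFs, so that this coverage cannot be assigned to Itgae alone.

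Among the beta subunits, Itgb1 (chr8:128685654-128733200) had the second highest WT MEF promoter fold of the members, after Itgav. The fold was 5.71 (WT) against 4.21 (KO) in mESCs and 25.4 (WT) against 20.8 (KO) in MEFs. Pol II body peaks numbered 38 over 22.7 kb in WT MEFs and 4 over 1.60 kb in KO MEFs, the largest difference of any member. H2Bub1 went the other way, with 38.4% covered in WT and 83.5% in KO MEFs, and 11.2% and 23.8% in mESCs.

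Itgb5, a vitronectin receptor subunit that pairs with the product of Itgav, had a promoter fold of 3.10 (WT) against 6.11 (KO) in mESCs and 12.1 (WT) against 7.25 (KO) in MEFs, so that it was higher in KO mESCs and lower in KO MEFs, as Itgav was. With mESC lists of the same length the WT peak of Itgb5 was lost, and its mESC ratio could not be formed. Its body peaks went from 21 to 7 in MEFs and its covered share from 9.29% to 70.3%. Itgb3, the beta subunit of the platelet and osteoclast integrins (chr11:104608000-104670476), had a promoter fold of 8.36 in WT MEFs and none in KO MEFs, and a fold of 2.53 in KO mESCs and none in WT mESCs. The mESC call was lost with a -log10 q of at least 3. H2Bub1 covered up to 5.13% of it, in KO mESCs. Itgb8, an activator of latent TGF-beta, had a promoter fold of 12.3 (WT) against 7.73 (KO) in MEFs and a covered share of 0.642% and 18.5%.

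Itgb4, the hemidesmosome subunit of epithelia, had a promoter fold of 2.50 (WT) against 3.86 (KO) in mESCs and 4.44 in KO MEFs, with no promoter peak in WT MEFs. Its WT mESC peak was lost with lists of the same length. A body peak in WT MEFs lay 3902 bp from the TSS, and the body held 3 peaks in WT and 2 in KO, with highest folds of 11.4 and 12.7. Of the epithelial and mesothelial markers, Upk1b, Upk3b, Wt1 and Msln had a promoter peak in KO but not in WT MEFs, as Itgb4 did, and their part in the Itgb4 and Itga3 values was not tested, while Krt8, Krt18, Krt19, Epcam and Cdh1 had neither a promoter peak nor H2Bub1 in either MEF library. Itgb7, a subunit of lymphocyte homing receptors, had a promoter fold of 3.04 in WT mESCs alone and of 9.92 (WT) against 3.03 (KO) in MEFs, a log2 ratio of -1.71, with a covered share of 12.0% in WT mESCs as the highest. Its mESC call was lost with lists of the same length. Itgb2, the beta subunit of the leukocyte integrins, had no Pol II peak in any library but a covered share of 0% (WT) against 21.3% (KO) in MEFs, where 56.9% of its first 10 kb was covered.

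Of the 3 genes that encode no subunit, Itgb1bp1, whose product binds the tail of the Itgb1 protein, had a promoter fold of 3.24 in WT mESCs alone and of 7.76 (WT) against 10.7 (KO) in MEFs. Its covered share was 2.13% and 28.0% in mESCs and 0% and 22.1% in MEFs. Itgb3bp, which encodes a centromere protein, had a promoter fold of 10.46 (WT) against 11.9 (KO) in MEFs. Both promoter windows are shared, with Cpsf3 starting 893 bp from Itgb1bp1 and Pgm1 starting 399 bp from Itgb3bp. Itgbl1 had a promoter fold of 3.40 in WT MEFs alone and no H2Bub1 peak in any library.

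The partner genes of these receptors were read from 5 lists with 62 symbols, of which 59 were matched on autosomes. Over the lists, 24 had a promoter peak in WT and 26 in KO mESCs, beside 35.3% and 32.1% of all genes. Of these, 6 were in WT alone, against 22.8%, and 8 in KO alone, against 15.1%. In MEFs 47 had one in WT and 44 in KO, beside 55.3% and 52.3% of all genes. Here 5 were in WT alone, against 8.01%, and 2 in KO alone, against 2.88%. A covered share at least 10 points higher in KO was found at 22 in mESCs, against 32.7% of all genes, and at 48 in MEFs, against 46.2%. Of all genes with promoter Pol II in both genotypes, 54.4% in mESCs and 82.4% in MEFs were higher by this measure. A share at least 10 points lower was found at 2 in mESCs, against 2.96%, and at 0 in MEFs, against 0.115%.

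Among 12 basement membrane partners, 4 of the 8 with promoter Pol II in WT mESCs had none in KO, against 22.8% of all genes. Of the 4 with it in KO mESCs, 0 had none in WT, against 15.1%. Hspg2, the perlecan gene, had a fold of 4.64 in WT mESCs and 20.4 (WT) against 12.9 (KO) in MEFs, and Fbln1, which encodes fibulin, 3.64 in WT mESCs. Col4a1 and Col4a2, the collagen chains of basement membranes, share a promoter and a single peak with a fold of 3.68 in WT mESCs, so that 2 of the 4 rest on 1 peak, and this peak reached 14.9 (WT) against 24.6 (KO) in MEFs. In MEFs Nid1, which links laminin to collagen, had a fold of 8.46 in WT alone, Fbln1 5.85 and Col18a1 5.03. H2Bub1 at Nid1 was higher in KO, with 7.50% covered in WT and 26.0% in KO MEFs.

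Among 12 other integrin ligands, Spp1, the osteopontin gene, had a fold of 4.01 in WT mESCs alone and 15.8 (WT) against 3.75 (KO) in MEFs. Mfge8 had a fold of 4.10 in KO but not in WT mESCs, and 7.58 (WT) against 10.9 (KO) in MEFs, and Vtn, the vitronectin gene, 3.18 in WT MEFs alone. The 20 activators and adaptors included Ilk, Pxn and Zyx, which encode focal adhesion proteins and, of the mESC libraries, had promoter Pol II in KO alone with folds of 3.91, 3.34 and 4.53. All 3 had it in both MEF libraries, with 30.5 (WT) against 21.6 (KO) at Ilk, 11.7 against 14.8 at Pxn and 33.4 against 26.1 at Zyx. Tns1, which encodes tensin, had a fold of 4.06 in WT MEFs alone and a covered share of 1.03% (WT) against 45.9% (KO) in MEFs. Kank1 had a fold of 3.86 in WT mESCs alone and 3.04 in KO MEFs alone.

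Of 10 kinases and signalling genes, 7 had promoter Pol II in KO mESCs. Of these 7, 4 (Fyn, Crkl, Git1 and Arhgef7) had none in WT mESCs, against 15.1% of all genes, with KO folds between 3.16 and 3.91. In MEFs Arhgef7 had no promoter peak and Fyn a fold of 14.3 (WT) against 5.30 (KO), a log2 ratio of -1.43. Crkl had 14.4 against 10.1, and Git1 had a peak in both libraries. Ptk2b, which encodes a relative of focal adhesion kinase, had a fold of 6.85 in KO MEFs alone, and its covered share was 0% (WT) against 70.1% (KO) in MEFs. The 5 tetraspanins, membrane partners of the laminin-binding integrins, had no promoter peak in 1 genotype alone in either cell type. All 5 had a covered share at least 10 points higher in KO MEFs, against 46.2% of all genes. Of the 5, 4 had promoter Pol II in both MEF libraries, and 82.4% of all such genes were higher by this measure.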

How the data were processed

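The authors sequenced 50 bp single-end ChIP-seq libraries, aligned them to mm10 with Bowtie 1.0.0 and called peaks per library with MACS2 2.1.1.20160309 (versions from the submitters' processing notes). Their methods place scaling before calling, by size factors over intergenic regions for H2Bub1 and by mapped reads for Pol II. The control and the thresholds are not given in the sources used here, and read depth is unknown. N-ethylmaleimide was in the buffers. The deposited peak lists give a fold (a linear ratio), a -log10 p and -log10 q, a score made from the latter and, for Pol II, a summit offset. More reads give more and wider peaks, and a fold is relative to the background of its own library.

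Of the 16 samples in the labels, 8 peak lists were used, 1 per group, and 8 samples were not analysed here. Peaks were placed on GENCODE M21 (GRCm38) in Python 3.11.15 with numpy 2.4.6 and pandas 2.3.3, and a call needed 1 bp of overlap. The 10 point and 2-fold sizes stand in for a test. The members and lists were chosen with earlier results of these data known. Every member was counted. Members with a promoter peak or a covered share of at least 10% are given by value, except 1 that is not reported here, and partners are named if called in 1 genotype alone. On simulated peaks set on the TSS without noise, 200 of 200 planted promoter differences were recovered among 2139 genes. This checks the overlap code alone and gives no sensitivity for real lists. Alternatives changed the q minimum, list length, promoter window, start sites, summit rule, covered share, gaps and the members counted.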

Additional observations from a re-analysis of the deposited data

Results flagged for a closer look

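Members are listed here if a difference between KO and WT had opposite directions in mESCs and MEFs and met a set size in both. The sizes were a promoter peak in 1 genotype alone, a promoter fold ratio of at least 1.5 times, or 10 points of H2Bub1 covered share. Opposite differences that were smaller or of mixed kind, and those of partner genes, are not listed. None of these differences between cell types was tested, since each rests on 4 libraries. The Itgb3 promoter had Pol II in KO alone in mESCs, with a fold of 2.53, and in WT alone in MEFs, with a fold of 8.36, and the mESC call was lost with a -log10 q of at least 3. The log2 ratio of KO to WT promoter fold was 0.59 in mESCs and -0.68 in MEFs at Itgav, and 0.98 and -0.74 at Itgb5, the genes of an alpha and a beta subunit that pair. The WT mESC peak of Itgb5 was lost with lists of the same length, so that its mESC ratio could not be formed there. The H2Bub1 covered share of Itgae differed by -10.7 points in mESCs and by 14.5 points in MEFs, and most of the covered length, other than in WT MEFs, lay in peaks that reach the nested gene Haspin.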

How the results depend on the processing

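Of 210 recomputed counts, totals and medians, 171 kept their sign and stayed within 1.5 times the reported value, and 39 did not. No paired analysis was possible because each group holds 1 library. With a -log10 q of at least 3, members with an H2Bub1 body peak numbered 6 (WT) against 17 (KO) in mESCs and 1 in WT MEFs, those with both marks 4 in WT mESCs and 1 in WT MEFs, members and partners with a lower share in mESCs 0 and 0, partners with a lower share in MEFs 1, and promoters with WT Pol II in mESCs only 1, and the median covered shares and the median difference in MEFs fell to 0. With equal list lengths, WT mESCs had 5 promoter peaks and 5 members with both marks, 1 promoter in WT alone and 5 in KO alone, 2 members with a lower share in mESCs and 2 partners in MEFs. The median log2 ratio of promoter fold in mESCs then turned to -0.03 (-0.0331), the median share in KO mESCs was 0.767%, and the median share in KO MEFs and the median difference in MEFs were 0. The narrow promoter and all annotated starts each left 1 member in mESCs only, and all starts left 1 partner in KO MEFs alone. With 10% of the gene covered, H2Bub1 bodies numbered 11 and 13 in WT and KO mESCs and 3 and 15 in MEFs, with both marks at 3 in WT MEFs. Among the 30 members that overlap no other gene, 13 had Pol II in KO MEFs, 1 in KO MEFs alone, and 0 a lower share in mESCs, with median shares of 1.63% (WT) and 4.43% (KO) and a median difference of 0.503 points in mESCs. At 20 points, 4 were higher and 0 lower in mESCs. In none of these alternatives did members with Pol II in WT MEFs alone number under 6. Itgb3 in KO mESCs, Itgb7 and Itga6 in WT mESCs, Lama1, Itga2b and Itgam and Itgb4 in MEFs lost their call in at least 1 alternative. Depth is unknown, so a missing peak is no measured absence, and differences between the 2 libraries of a pair may be technical.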
